A study of Mus musculus with 99 samples.

Results

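The nuclear genes of oxidative phosphorylation encode most subunits of the 5 enzyme complexes with which mitochondria make ATP. Here they were the 85 protein-coding genes, of 37991 genes in the deposited count table, whose mouse symbol names a structural subunit of complex I (35 genes, the Nduf series), complex II (4, the Sdh genes), complex III (9, the Uqcr genes and Cyc1), complex IV (20, the Cox4 to Cox8 genes with Ndufa4 and Ndufa4l2) or complex V, the ATP synthase (17, the Atp5 genes). The rule used symbols only, and 10 processed pseudogenes with matching symbols were left out, with which the subunit genes could share reads. RNA came from 4 brain regions of mice in a study of chronic social defeat, in which a mouse repeatedly meets an aggressor and is then classed by its behaviour: nucleus accumbens, prefrontal cortex, ventral hippocampus and basolateral amygdala. Each region had 7 groups. These were defeated mice classed as susceptible and then given imipramine or ketamine, each divided into responders and non-responders, resilient mice given saline, susceptible mice given saline, and control mice given saline. Each region had 3 libraries of imipramine responders, 4 of imipramine non-responders, 3 of ketamine responders, 3 of ketamine non-responders, 4 of resilient, 3 of susceptible and 5 of control mice, but 4 of control hippocampus, for 99 libraries in all. Strain, sex, age and doses are not given in the sources used here.

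Complex I takes electrons from NADH and complex II from succinate, and both hand them by way of ubiquinone to complex III. Cytochrome c carries them on to complex IV, where oxygen is reduced, and the proton gradient that complexes I, III and IV build drives ATP synthesis by complex V. A small set of core subunits of complexes I, III, IV and V is encoded in the mitochondrial genome, and the nuclear subunits are made in the cytosol and imported. Neurons depend heavily on this pathway, because ion pumping after synaptic activity consumes much of their ATP. Complex IV also has paired isoforms of several subunits, a common form and one known from heart and skeletal muscle, lung or testis.

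Promoters of these genes are known to carry sites for the nuclear respiratory factors, NRF1 and the ETS-family factor GABP. Exact motif letters were searched on both strands from 250 bases before to 50 after the start of each gene in RefSeq's GRCm38.p6 annotation, where 66 of the 85 genes had an entry. The NRF1 letters, GCGCA and GCGC with any 1 base between them, were found in 17 of the 66 (25.8%), against 5.19% of 27025 genes with an entry. The ETS letters CCGGAAG were found in 16 (24.2%, against 9.93%), the YY1 letters AAGATGGCG in 7 (10.6%, against 1.64%), the ESRRA letters TCAAGGTCA in 2 (3.03%, against 0.466%) and the TATA box letters TATAAA in 7 (10.6%, against 15.7%). ETS and NRF1 letters do not contain one another, and a match is a description of the letters and not a binding site. The windows of 4 genes that come up below, 150 bases before to 30 after the start, are shown with matches in capitals to let the letters be seen. Atp5g2 (chr15:102671018-102671197, minus strand) carries the NRF1 letters, Sdhd (chr9:50603820-50603999, minus strand) and Cox6a1 (chr5:115348929-115349108, minus strand) carry NRF1 and, as CTTCCGG on this strand, ETS letters, and Ndufb10 (chr17:24724394-24724573, minus strand), which was among the genes highest in nucleus accumbens, has no exact match in this window.
Atp5g2: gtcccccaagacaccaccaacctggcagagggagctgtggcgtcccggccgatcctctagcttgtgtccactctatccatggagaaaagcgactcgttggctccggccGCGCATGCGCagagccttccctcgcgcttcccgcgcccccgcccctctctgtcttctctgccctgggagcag
Sdhd: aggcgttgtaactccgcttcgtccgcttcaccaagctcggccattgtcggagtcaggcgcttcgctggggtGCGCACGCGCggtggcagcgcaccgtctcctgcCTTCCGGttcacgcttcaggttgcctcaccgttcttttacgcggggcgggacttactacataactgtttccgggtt
Cox6a1: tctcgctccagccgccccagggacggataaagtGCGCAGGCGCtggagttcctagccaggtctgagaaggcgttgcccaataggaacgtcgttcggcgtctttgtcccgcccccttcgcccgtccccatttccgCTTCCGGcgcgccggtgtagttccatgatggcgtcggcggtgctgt
Ndufb10: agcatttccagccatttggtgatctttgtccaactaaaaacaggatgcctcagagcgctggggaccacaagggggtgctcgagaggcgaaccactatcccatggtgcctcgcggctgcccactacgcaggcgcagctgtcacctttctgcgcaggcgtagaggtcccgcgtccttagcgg

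Total counts ranged from 14459028 to 59187954 per library (median 31086418), and the 85 genes took 0.766% to 2.06% of them (median 0.863%). Each library pooled tissue from 2 mice, and the labels call the libraries biological replicates but do not tell if one mouse gave tissue to several regions. In bulk tissue, fewer cells of a type and less RNA per cell cannot be told apart. A pair of libraries stood apart from the rest in these genes: sample 78, an imipramine responder of the nucleus accumbens, and sample 66, an imipramine responder of the amygdala. They also enter the estimate of the spread in every comparison of their regions, so values without them are given for nucleus accumbens and amygdala. The testis isoform gene Cox8c had at most 2 counts in any library and was tested in no region. Cox8b was left out by the filter on low counts in prefrontal cortex and nucleus accumbens, and Cox7b2 in prefrontal cortex and amygdala, so that 82 genes were tested in prefrontal cortex, 83 in nucleus accumbens, 84 in hippocampus and 83 in amygdala.

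Levels were compared between genes per kilobase of transcript (RPKM, CPM, the counts scaled to library size, divided by transcript length in kilobases), averaged over the 4 regions of control mice. The catalytic beta subunit of ATP synthase led: Atp5b stood at 568 RPKM. The common complex IV subunits Cox8a (452 RPKM), Cox6a1 (435 RPKM) and Cox4i1 (423 RPKM) followed, and then the alpha subunit of ATP synthase, Atp5a1 (333 RPKM). By complex, the median gene stood at 126 RPKM in complex V, 108 in complex III, 79.2 in complex IV, 73.4 in complex I and 72.4 in complex II. Within complex I the range ran from 6.04 RPKM for Ndufb2 to 162 for Ndufb9, both accessory subunits of its membrane arm. Within complex II it ran from 32.6 for the membrane anchor Sdhc to 144 for the catalytic flavoprotein Sdha.

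Complex IV held the lowest genes, the tissue-restricted isoforms. Cox4i2, the isoform of subunit 4 abundant in lung, made up 0.683 ± 0.0556% of the Cox4i1 and Cox4i2 total in control nucleus accumbens (SD, n = 5), against 0.276 ± 0.0721% in hippocampus (n = 4), 0.325 ± 0.043% in amygdala and 0.349 ± 0.0731% in prefrontal cortex (n = 5 each). Cox6a2, the heart and muscle isoform of subunit 6A, made up 1.62 ± 0.27% of its pair in nucleus accumbens, 0.691 ± 0.125% in hippocampus, 1.49 ± 0.103% in amygdala and 1.13 ± 0.166% in prefrontal cortex. The testis isoform Cox6b2 made up 0.606% to 1.14% of its pair across regions, and Ndufa4l2, the hypoxia-inducible relative of Ndufa4, 0.693% to 0.757%. Cox7b2 made up 0.387% to 0.595% of the Cox7b pair, and Cox8b at most 0.0619% of the Cox8 family in any region's controls. In these families the common form therefore took at least 98% of the transcripts per length in every region. The Cox7a and Atp5g families were divided more evenly. Cox7a2 held 68.3% to 74.1% across regions and Cox7a2l, which is known to help join complexes III and IV, 25.1% to 31.0%, while muscle Cox7a1 held 0.707% to 0.866%. Of the 3 genes that encode the identical mature c-ring subunit of ATP synthase, Atp5g3 held 70.1% to 73.4%, Atp5g2 19.7% to 23.3% and Atp5g1 6.59% to 7.31%.

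**Figure D1:**
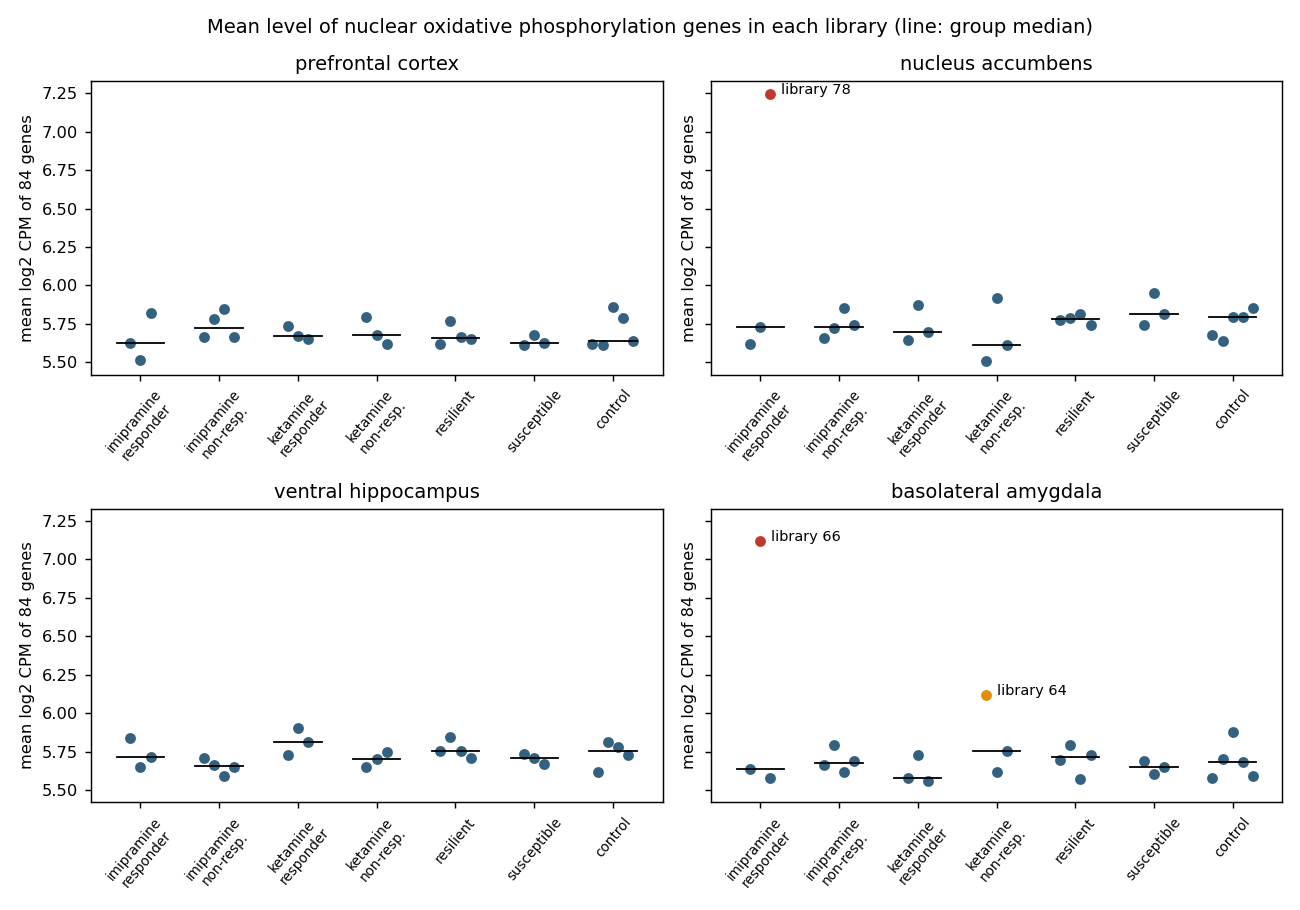
Mean log2 CPM (TMM-normalized counts scaled to library size, prior count 2) of the 84 genes kept over all libraries, by library, in 4 panels for the 4 regions and 7 groups per panel. Points are libraries and lines are group medians. Libraries 78 (7.24, nucleus accumbens) and 66 (7.12, amygdala) lie above all others, and library 64 (6.12, a ketamine non-responder of the amygdala) comes next.

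The regions were compared in control mice, where neither stress nor drug enters. Of the 82 genes tested, 21 differed between regions (25.6%), against 72.9% of the 17720 genes tested (edgeR F-test, Benjamini-Hochberg adjusted p below 0.05). With the number series as a covariate, the 5 runs into which the sample numbers in the labels fall, 41 of the 82 differed (76.9% of all genes), and leaving out 1 control library at a time gave 16 to 32 (69.8% to 73.9% of all genes). The ratio of the highest to the lowest regional mean had a median of 1.14 over the 82 genes, against 1.46 over all genes tested and 1.34 over 6881 genes of like level, of which 82.7% differed between regions. The called genes were 10 of 35 in complex I, 2 of 4 in complex II, 1 of 9 in complex III, 6 of 17 in complex IV and 2 of 17 in complex V. Set against the mean of the other 3 regions, nucleus accumbens had 15 genes higher and 10 lower (backgrounds 30.2% and 26.8% of all genes). Hippocampus had 5 higher and 3 lower (20.9% and 22.6%), amygdala 2 higher and 8 lower (19.7% and 17.4%), and prefrontal cortex 1 higher and 4 lower (23.4% and 23.1%). Of the 26 calls named in the next paragraphs, 11 were kept under each of the 25 alternatives tried, most of which leave out 1 control library, and 15 were lost under at least 1.

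In complex I, Ndufb10 (ENSMUSG00000040048, chromosome 17), an accessory subunit of the membrane arm, stood at 110, 113, 122, 115 and 136 CPM in the 5 control libraries of nucleus accumbens. It stood at 87.5, 95.4, 88.4 and 90.2 CPM in hippocampus, 87.1, 102.0, 112, 95.1 and 88.0 CPM in amygdala, and 74.8, 81.8, 101.3, 88.9 and 87.1 CPM in prefrontal cortex. The accumbens libraries overlapped only with 1 amygdala library, and the gene was higher there than in the other regions (log2 difference 0.39, SE 0.0647, adjusted p = 2.49e-05, edgeR) and lower in prefrontal cortex (-0.22, SE 0.0671, adjusted p = 0.0106). Ndufa1 (ENSMUSG00000016427, chromosome X), a small membrane-arm subunit needed for assembly, had 41.3, 38.6, 44.0, 47.1 and 52.8 CPM in nucleus accumbens, against 32.4 to 41.4 CPM in hippocampus, 28.0 to 35.4 CPM in amygdala and 29.8 to 37.5 CPM in prefrontal cortex. It was higher in nucleus accumbens (0.40, SE 0.0716, adjusted p = 5.95e-05) and lower in amygdala (-0.305, SE 0.0742, adjusted p = 0.00254). Ndufs3, a core subunit of the hydrophilic arm, was lower in amygdala (54.6 ± 6.44 CPM, SD, n = 5; -0.26, SE 0.0667). Ndufb9 (0.16, SE 0.0584) and Ndufa10 (0.14, SE 0.0463) were higher in hippocampus, and Ndufb2 was lower in prefrontal cortex (-0.17, SE 0.0631). Calls of the last 3 were lost without 1 or another control library, and over the alternatives their log2 differences were 0.06, 0.08 and -0.11 at the smallest. The call of Ndufs3 was lost under 1 alternative, over all 99 libraries (-0.127), and that of Ndufb10 in prefrontal cortex without control replicate 1 of that region (-0.169). Library 66 of the amygdala had 157 CPM of Ndufs3, against 50 to 72 CPM in the other amygdala libraries. Averaged over conditions without libraries 66 and 78, Ndufs3 was called lower in amygdala (-0.196, SE 0.0286, adjusted p = 7.03e-09, edgeR).

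In complex II, Sdhc (ENSMUSG00000058076, chromosome 1), which anchors the enzyme in the membrane and helps bind ubiquinone, had 70.5, 69.2, 74.0, 74.8 and 78.0 CPM in nucleus accumbens. It had 50.3, 54.8, 65.4, 57.8 and 53.4 CPM in prefrontal cortex, 62.8, 68.9, 66.8 and 62.3 CPM in hippocampus, and 66.5, 65.9, 72.9, 64.8 and 55.9 CPM in amygdala. All 5 accumbens libraries lay above all 5 prefrontal libraries. The gene was higher in nucleus accumbens (0.25, SE 0.0578, adjusted p = 0.00103) and lower in prefrontal cortex (-0.26, SE 0.0596, adjusted p = 0.00102). Sdha, at 443 ± 17.5 CPM in amygdala (SD, n = 5), was higher there (0.10, SE 0.0397), while the second anchor gene Sdhd was lower in amygdala (-0.13, SE 0.043) and the iron-sulphur subunit Sdhb lower in hippocampus (-0.15, SE 0.0531). In complex III, the Rieske iron-sulphur gene Uqcrfs1 was higher in hippocampus (101 ± 5.29 CPM, SD, n = 4; 0.16, SE 0.0506) and lower in nucleus accumbens (86.8 ± 2.48 CPM, n = 5; -0.12, SE 0.0477), and Uqcrb, a ubiquinone-binding subunit, was higher in nucleus accumbens (0.17, SE 0.07). The calls of this paragraph other than those of Sdhc were each lost under at least 1 alternative, and that of Sdha under 13 of 25.

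Complex IV held the widest differences. Cox4i2 (ENSMUSG00000009876, chromosome 2) had 2.17, 2.17, 2.03, 2.08 and 2.46 CPM in nucleus accumbens. Hippocampus had 1.03, 0.631, 0.855 and 0.703 CPM, amygdala 0.701, 1.01, 1.28, 0.908 and 0.989 CPM, and prefrontal cortex 0.974, 0.914, 1.53, 1.45 and 0.868 CPM. Every accumbens library lay above every library of the other regions (log2 difference 1.19, SE 0.149, adjusted p = 6.44e-07), and hippocampus was lower (-0.74, SE 0.188, adjusted p = 0.00286). Its partner Cox4i1 did not pass the F-test (adjusted p = 0.221). Of 11 markers of mural and meningeal cells, counted together, 2 were called higher in nucleus accumbens and 4 lower. Mural cell markers were not counted apart from meningeal ones, and the part of these cells in the Cox4i2 difference was not tested. Cox6a2 (ENSMUSG00000030785, chromosome 7) had 3.59, 3.87, 5.72, 5.57 and 4.401 CPM in nucleus accumbens and 2.62, 2.66, 1.90 and 2.07 CPM in hippocampus, without overlap, against 3.36 to 4.57 CPM in amygdala and 2.60 to 4.52 CPM in prefrontal cortex. It was higher in nucleus accumbens (0.54, SE 0.132, adjusted p = 0.00135) and lower in hippocampus (-0.79, SE 0.157, adjusted p = 0.00029).

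Other complex IV genes differed less. Cox6b2 was lower in prefrontal cortex (0.743 ± 0.253 CPM, SD, n = 5; -0.64, SE 0.218), where Cox7b was the only gene of all 5 complexes called higher (95.6 ± 10.4 CPM; 0.17, SE 0.0634). Cox6a1 (219 ± 27.1 CPM; -0.24, SE 0.0804) and Cox7c (47.1 ± 7.24 CPM; -0.27, SE 0.101) were lower in amygdala. Each of these 4 calls was lost without 1 or another control library. That of Cox7c was lost under 13 of 25 alternatives, and its log2 difference was -0.039 over all 99 libraries. Among these is library 66 of the amygdala, with 156 CPM of Cox7c, against 39 to 69 CPM in the other amygdala libraries. Averaged over conditions without libraries 66 and 78, Cox7c was called lower in amygdala (-0.123, SE 0.0462, adjusted p = 0.0169, edgeR). In complex V, Atp5g2 (ENSMUSG00000062683, chromosome 15), 1 of the c-ring genes, had 49.3, 48.7, 60.8, 59.0 and 57.3 CPM in nucleus accumbens, against 39.3 to 52.8 CPM in hippocampus, 40.2 to 52.8 CPM in amygdala and 35.2 to 51.5 CPM in prefrontal cortex. The ranges overlapped at their edges, and the gene was higher in nucleus accumbens (0.345, SE 0.0839, adjusted p = 0.00139). Atp5s (ENSMUSG00000054894, chromosome 12), named for a coupling factor of ATP synthase, had 11.5, 11.1, 9.69, 11.4 and 11.4 CPM there, against 12.4 to 15.4 CPM in hippocampus, 13.1 to 14.7 CPM in amygdala and 11.4 to 15.1 CPM in prefrontal cortex, and was lower (-0.27, SE 0.0712, adjusted p = 0.00267). The catalytic Atp5a1 and Atp5b were not among the genes that passed the F-test.

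**Figure D2:**
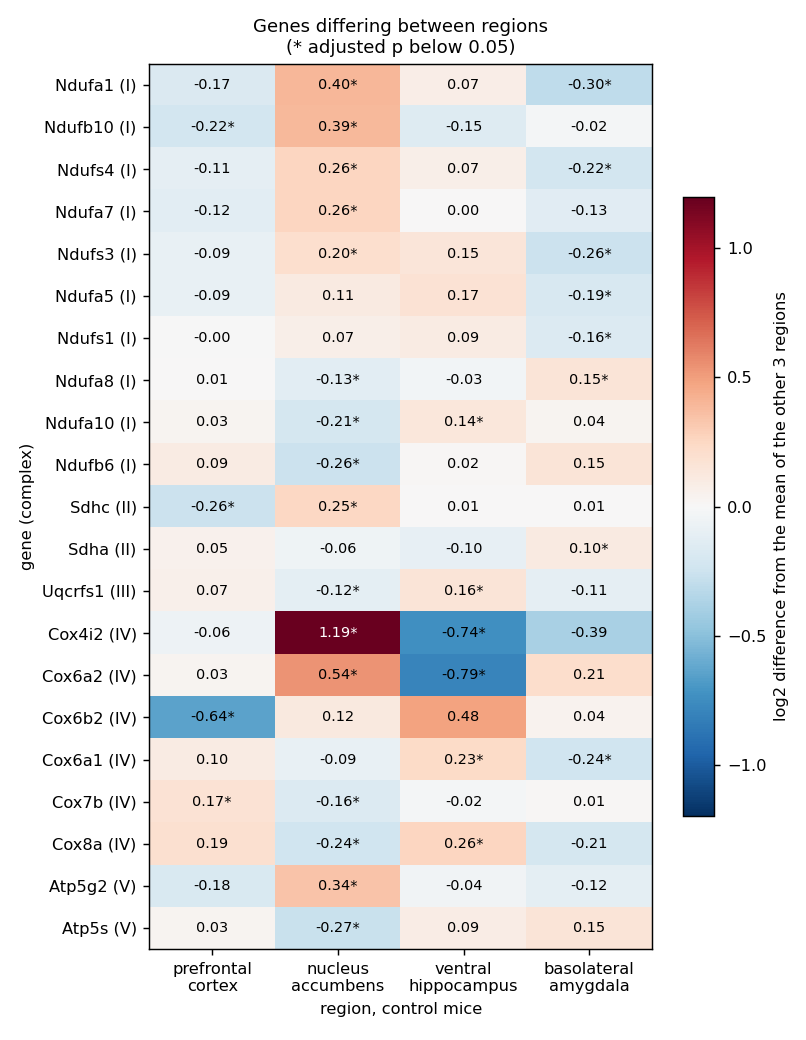
Log2 difference of each region from the mean of the other 3 in control mice, for the 21 genes that differed between regions (rows, with the complex in brackets; columns are the regions). Colour and number give the difference and an asterisk an adjusted p below 0.05; Cox4i2 in nucleus accumbens (1.19) and Cox6a2 in hippocampus (-0.79) are the furthest from 0.

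Genes around the pathway were counted in the same test. Of those tested, the F-test called 6 of 12 genes of the mitochondrial genome, 12 of 17 complex I assembly factors, 7 of 10 assembly factors of complexes II and III, 11 of 21 of complex IV, 5 of 6 of complex V, 12 of 19 carriers and accessory genes, 12 of 16 genes of the TCA cycle and 12 of 15 regulators of mitochondrial biogenesis, beside 72.9% of all genes. Nucleus accumbens stood out in several lists. Ppargc1b, a coactivator of mitochondrial genes, was at 20.2 ± 1.52 CPM there (SD, n = 5), against 11.9 ± 1.28 CPM in prefrontal cortex, 11.3 ± 0.682 CPM in amygdala (n = 5 each) and 9.92 ± 0.87 CPM in hippocampus (n = 4; adjusted p = 7.87e-10, edgeR F-test). The helicase gene Twnk, which acts in the copying of mitochondrial DNA, was at 20.3 ± 1.24 CPM there and 14.2 to 16.0 CPM on average elsewhere. The mitochondrial mt-Co2 and mt-Co3, core subunits of complex IV, were at 6776 ± 1007 and 8115 ± 1068 CPM in nucleus accumbens and averaged 5122 to 5730 and 6331 to 6577 CPM elsewhere; 8 of the 12 mitochondrial genes were higher there and 0 lower. In the TCA cycle 9 of 16 genes were lower in nucleus accumbens and 1 was higher. Idh3a, the catalytic subunit of isocitrate dehydrogenase, was at 160 ± 9.03 CPM there and 198 to 225 CPM on average elsewhere, and Dlat, of the pyruvate dehydrogenase complex, at 81.3 ± 4.39 CPM there and 128 ± 12.4 CPM in hippocampus.

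Among the assembly factors, Tmem186 (complex I) was at 26.7 ± 1.03 CPM in nucleus accumbens and 18.8 ± 0.929 CPM in hippocampus, and Ttc19 (complex III) at 78.2 ± 3.98 and 104 ± 4.49 CPM. Coa7 (complex IV) was at 11.2 ± 0.729 CPM in amygdala and 16.0 ± 1.33 CPM in nucleus accumbens, and Atpaf1 (complex V) at 38.7 ± 2.91 and 49.7 ± 5.63 CPM in the same regions. Coq8a, of ubiquinone synthesis, was at 57.4 ± 2.36 CPM in hippocampus and 35.8 to 39.1 CPM on average elsewhere. Ribosomal protein genes divided by kind. Of 76 cytosolic ones, 64 were higher and 2 lower in nucleus accumbens (median log2 difference 0.32) and 59 were lower in prefrontal cortex (-0.27), while of 76 mitochondrial ones 16 were higher and 14 lower in nucleus accumbens (0.01). The median over the 82 subunit genes was 0.04 in nucleus accumbens and -0.00 in prefrontal cortex, against 0.03 and -0.02 over all genes.

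The conditions were then compared within each region, in 9 comparisons, to ask whether stress outcome or drug response goes with these genes. In all 36 comparisons edgeR called 0 of the genes. All genes together had calls in 2 comparisons, ketamine responders and ketamine non-responders against susceptible hippocampus, with 0.67% and 0.00563% of genes called, and 0% in each of the others. DESeq2 also called 0 of the genes in every comparison. At an unadjusted p below 0.05 there were 0 to 71 of them per comparison, 293 in sum, most of them in the 4 comparisons of imipramine responders that contain libraries 78 and 66. In those 4, many of all genes tested also reached that p. They were 2060 and 3078 of 17718 in nucleus accumbens and 2251 and 2816 of 18392 in amygdala, against susceptible mice and non-responders in that order. Without libraries 78 and 66 the counts of subunit genes were highest in amygdala. They were 45 of 83 for ketamine responders against non-responders and 28 of 83 for ketamine non-responders against susceptible mice. The 4 comparisons of imipramine responders then had 0 to 10. The share of all genes at that unadjusted p without this pair is not given here, so these counts have no background beside them. With all libraries the smallest adjusted p of a subunit gene was 0.147 (edgeR), for Cox4i2 in ketamine responder hippocampus. Beside the median log2 fold change over the genes, the text gives that over all genes, which lay between -0.01 and 0.03.

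**Figure D3:**
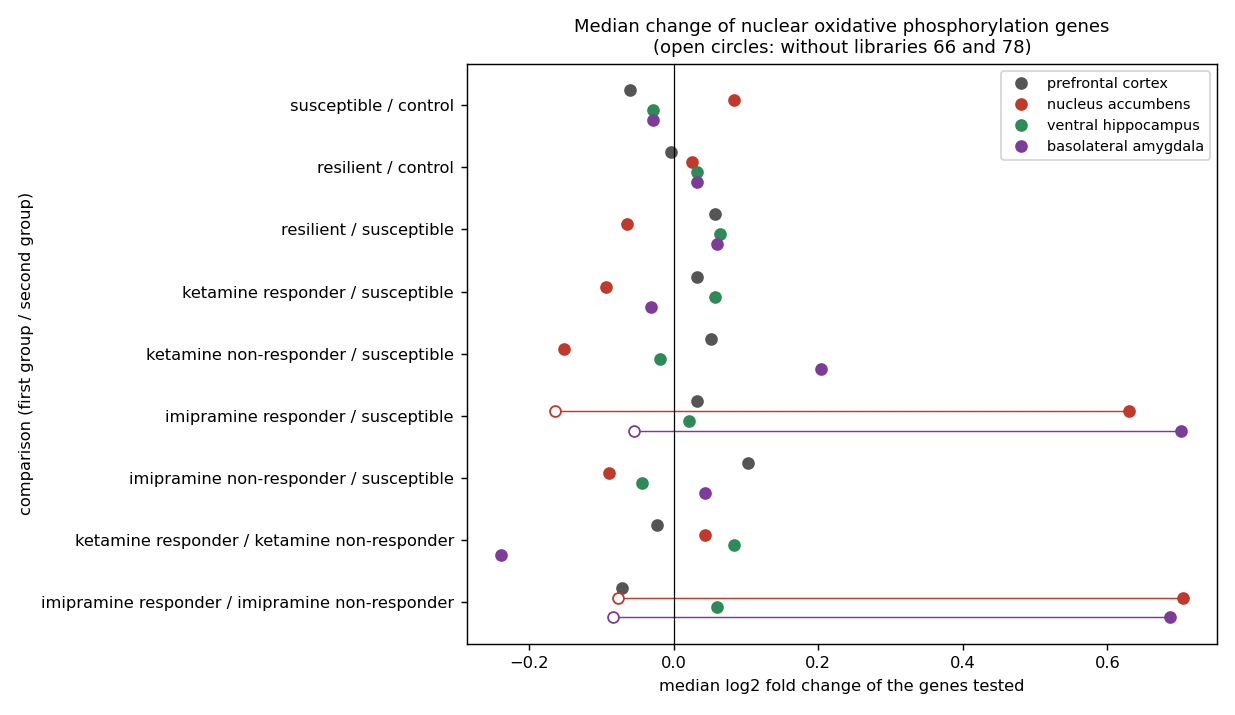
Median log2 fold change over the tested genes (horizontal axis) in the 9 comparisons (rows, the first group over the second) and the 4 regions (colours). Filled circles are all libraries and open circles leave out libraries 66 and 78; the medians of 0.63 to 0.71 for imipramine responders in nucleus accumbens and amygdala lie between -0.16 and -0.06 without them.

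In susceptible mice no subunit gene passed the test against controls in any region. In susceptible against control mice the median was -0.06 in prefrontal cortex (15 of 82 genes higher), 0.08 in nucleus accumbens (80 of 83 higher), -0.03 in hippocampus (19 of 84 higher) and -0.03 in amygdala (24 of 83 higher), with a median SE of a single gene of 0.0814, 0.258, 0.0783 and 0.247. Without libraries 78 and 66 the median was 0.095 in nucleus accumbens (80 of 83 higher, median SE 0.096) and -0.03 in amygdala (22 of 83 higher, median SE 0.0983), and with the number series as a covariate the amygdala median was 0.095. In nucleus accumbens 5 of 5 markers of excitatory neurons (median log2 fold change 1.87) and 7 of 8 general neuron markers (0.25) were also higher in susceptible mice, none past the test, and their part in the shift of the subunit genes was not tested. In resilient against control nucleus accumbens 5 of 5 (1.88) and 8 of 8 (0.26) of the same markers were higher, none past the test, beside a median of 0.03 over the subunit genes. The mean log2 CPM of the genes was 5.64 ± 0.034 in susceptible and 5.70 ± 0.113 in control prefrontal cortex, and 5.84 ± 0.105 in susceptible and 5.75 ± 0.089 in control nucleus accumbens (SD, n = 3 and 5). The genes with the smallest p did not pass. They were Ndufa13 in prefrontal cortex (-0.15, SE 0.0688), Cox7a1 in nucleus accumbens (0.42, SE 0.393), Ndufs5 in hippocampus (-0.14, SE 0.0922) and Ndufb2 in amygdala (-0.12, SE 0.103). Without library 78 the smallest p in nucleus accumbens was that of Uqcrh. Ndufa13, an accessory subunit of complex I also known as GRIM-19, had 69.7, 65.4 and 68.98 CPM in susceptible prefrontal cortex and 71.9, 68.4, 82.9, 82.9 and 72.7 CPM in controls, so that the groups overlapped. The number of genes whose libraries did not overlap was 2 of 83 (higher) in nucleus accumbens, where 0.604% of all genes did so, 1 of 82 (lower) in prefrontal cortex (0.868%) and 0 in the other 2 regions (0.859% to 1.77%).

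Resilient mice had medians of -0.00 in prefrontal cortex, 0.03 in nucleus accumbens, 0.03 in hippocampus and 0.03 in amygdala against controls. Against susceptible mice, whose libraries enter the susceptible comparison too, their medians were 0.06, -0.06, 0.06 and 0.06. With the number series as a covariate the nucleus accumbens medians were -0.12 against controls and -0.19 against susceptible mice. Under it the medians against susceptible mice were -0.08 in amygdala, 0.009 in prefrontal cortex and 0.019 in hippocampus. Without libraries 78 and 66 the medians against controls and susceptible mice were 0.023 and -0.078 in nucleus accumbens and 0.025 and 0.055 in amygdala. The smallest p against controls was then that of Ndufc2 in nucleus accumbens and Ndufs4 in amygdala. The genes with the smallest p against controls were Atp5mpl in prefrontal cortex (-0.18, SE 0.0793), Ndufs1 in nucleus accumbens (0.11, SE 0.0824), Cox7a1 in hippocampus (0.53, SE 0.214) and Cox8b in amygdala (-1.71, SE 1.66). Atp5mpl, a small membrane subunit of ATP synthase, had 40.0, 45.4, 45.2 and 40.4 CPM in resilient and 46.5, 44.1, 52.6, 57.6 and 42.3 CPM in control prefrontal cortex. It passed with the number series as a covariate, where 1.67% of all genes did. Against susceptible mice they were Ndufa3 in prefrontal cortex (0.19, SE 0.0966), Ndufb4 in nucleus accumbens (-0.19, SE 0.233), Uqcrh in hippocampus (0.14, SE 0.0536) and Ndufb2 in amygdala (0.17, SE 0.107), none past the test. Uqcrh, the hinge protein of complex III, had 92.2, 96.8, 85.4 and 84.3 CPM in resilient and 78.6, 81.8 and 84.7 CPM in susceptible hippocampus, with the highest susceptible library above the lowest resilient one.

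Ketamine responders had medians of 0.03 in prefrontal cortex, -0.09 in nucleus accumbens, 0.06 in hippocampus and -0.03 in amygdala against susceptible saline mice, and non-responders 0.05, -0.15, -0.02 and 0.20. With the number series as a covariate the amygdala median of non-responders was -0.022. The medians of responders under it were -0.21 in nucleus accumbens and 0.004 in hippocampus. Without libraries 78 and 66 the medians were -0.11 in responders and -0.15 in non-responders in nucleus accumbens, and -0.04 and 0.20 in amygdala. The medians of non-responders rested in part on single libraries. Without non-responder replicate 1 of the amygdala, library 64, the median there was 0.047 (60 of 84 genes higher), and 0.31 without replicate 2. In nucleus accumbens it was -0.067 without non-responder replicate 1 and -0.30 without replicate 2. There 9 of 83 genes were higher in responders and 5 of 83 in non-responders. Excitatory neuron markers were higher in 0 of 5 cases (median log2 fold change -0.91 in responders and -1.25 in non-responders), general neuron markers in 1 of 8 in each, and oligodendrocyte markers in 10 of 10 in each (0.305 and 0.302). Markers of striatal projection neurons, the main neurons of this region, were higher in 3 of 11 cases in responders (-0.14) and 0 of 11 in non-responders (-0.37), and summed to 7683 to 9102 CPM in responders and 4582 to 9250 CPM in non-responders, against 6583 to 10620 CPM in susceptible mice. Ependyma markers were higher in 6 of 6 cases in each (0.81 and 0.62) and microglia markers in 10 of 10 in responders (0.15) and 8 of 10 in non-responders (0.105). None of these markers passed the test, and their part in the medians was not tested. The imipramine arms there were compared with the same 3 susceptible libraries, so the directions are not independent. The genes with the smallest p in responders were Cox7a1 in prefrontal cortex (0.82, SE 0.386), Cox6b2 in nucleus accumbens (0.53, SE 0.29), Cox4i2 in hippocampus and Cox8b in amygdala (2.69, SE 1.10). Those in non-responders were Uqcrq in prefrontal cortex (0.19, SE 0.102), Ndufb2 in nucleus accumbens (0.23, SE 0.12), Cox6b2 in hippocampus (0.72, SE 0.304) and Ndufb2 in amygdala (0.25, SE 0.115). Without libraries 78 and 66 the smallest p was that of Uqcrb in nucleus accumbens and Ndufs1 in amygdala for responders, and Ndufa5 and Ndufa13 (adjusted p = 0.517, edgeR) for non-responders. Cox7a1 had 0.882, 0.826 and 1.10 CPM in ketamine responder and 0.645, 0.476 and 0.434 CPM in susceptible prefrontal cortex, without overlap, as for 5 of 82 genes that lay higher and 5.54% of all genes. Cox8b in amygdala responders rested on 1 library, and without it its log2 fold change was -2.73. In amygdala 9 of 83 genes lay above every susceptible library in non-responders (4.83% of all genes) and 13 of 83 below in responders (9.03%).

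The hippocampus of ketamine responders was where Cox4i2 came closest to a call. Cox4i2 had 0.765, 1.21 and 1.62 CPM in ketamine responders, 1.07, 0.68 and 0.819 CPM in non-responders and 0.651, 0.754 and 0.596 CPM in susceptible mice. Every responder library lay above every susceptible one, by a narrow margin in the first, as for 7 of 84 genes and 7.03% of all genes (log2 fold change 0.84, SE 0.248, adjusted p = 0.147). Cox6a2 had 2.32, 4.21 and 9.17 CPM in responders, 2.27, 2.24 and 2.58 CPM in non-responders and 2.48, 2.03 and 2.47 CPM in susceptible mice, so that the third responder library carried most of the difference. Cox6b2 had 1.09, 2.66 and 1.84 CPM in responders, 1.32, 2.35 and 1.11 CPM in non-responders and 0.713, 1.22 and 0.923 CPM in susceptible mice, and the responder and susceptible libraries overlapped. The 2 highest Cox6b2 libraries, responder replicate 2 and non-responder replicate 2, had 2583 and 1840 CPM of choroid plexus markers, against 42.6 to 47.8 CPM in susceptible mice. Without responder replicate 1 these 3 isoform genes of complex IV passed, with 3.05% of all genes, and Cox4i2 passed with the number series as a covariate, with 2.65% of all genes. In the same libraries the summed level of 10 thalamus markers was 186, 317 and 865 CPM in responders, 211, 174 and 180 CPM in non-responders and 53.1, 55.8 and 52.8 CPM in susceptible mice, and 10 of 10 markers were called higher in responders. The library with the highest thalamus sum also had the highest Cox4i2 and Cox6a2, and skeletal muscle markers summed to 13.1 CPM in it, against 8.71 and 9.05 CPM in the other responders and 7.47 to 7.69 CPM in susceptible mice. The part of thalamus or choroid plexus tissue in these differences was not tested.

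**Figure D4:**
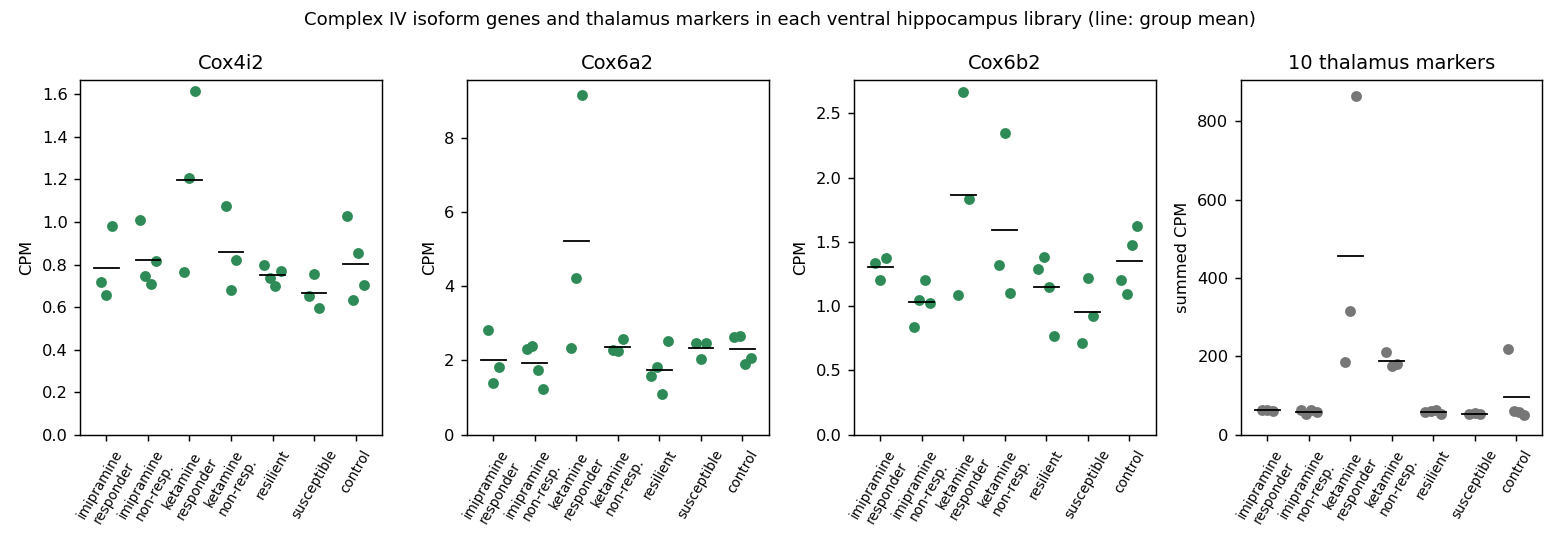
CPM of Cox4i2, Cox6a2 and Cox6b2, and the summed CPM of 10 thalamus markers, in each ventral hippocampus library by group (points are libraries, lines are group means). The ketamine responder library with 865 CPM of thalamus markers also has the highest Cox4i2 (1.62 CPM) and Cox6a2 (9.17 CPM).

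Ketamine responders against non-responders had medians of -0.02 in prefrontal cortex, 0.04 in nucleus accumbens, 0.08 in hippocampus and -0.24 in amygdala. In hippocampus 14 of 84 genes lay above every non-responder library (5.24% of all genes), with Cox6a2 the smallest in p (1.15, SE 0.355, adjusted p = 0.699). In prefrontal cortex Cox6a2 also had the smallest p (0.30, SE 0.222) and in nucleus accumbens Ndufb2 did (-0.28, SE 0.12). In amygdala 2 of 83 genes were higher in responders and 29 lay below every non-responder library (7.32% of all genes), but the median was -0.042 with the number series as a covariate, that of prefrontal cortex 0.079 and that of nucleus accumbens -0.069. Without library 66 the amygdala median was -0.24, with the smallest p for Ndufb3 (adjusted p = 0.327, edgeR). Without library 64, a non-responder, it was -0.084 (11 of 84 genes higher), and -0.345 without non-responder replicate 2. In nucleus accumbens the median was -0.03 without non-responder replicate 1 and 0.19 without replicate 2. In the amygdala of responders 0 of 10 oligodendrocyte markers (median log2 fold change -0.296) and 0 of 10 microglia markers (-0.29) were higher, while 8 of 8 choroid plexus markers were (5.44), none past the test, and their part was not tested. A single responder library carried the choroid plexus markers, which summed to 32.4, 42.2 and 2947 CPM in responders and 29.5, 34.4 and 47.05 CPM in non-responders, in each from the lowest library to the highest. There library 64, non-responder replicate 1, was high: 74 of 84 genes lay above the other 23 amygdala libraries other than library 66, while 15.8% of all genes did so. Over the 84 genes, its level was at the median 1.39-fold the median of those libraries. Cox8b had the smallest p in that comparison (3.24, SE 1.21), with 0.027, 2.13 and 0 CPM in responders and 0.148, 0.037 and 0.028 CPM in non-responders, so that 1 library decided it. Without that library, responder replicate 2, its log2 fold change was -2.17.

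Imipramine responders differed most, through 1 library in each of 2 regions. Against susceptible mice the median over the genes was 0.63 in nucleus accumbens and 0.70 in amygdala, but 0.03 in prefrontal cortex and 0.02 in hippocampus. In nucleus accumbens 82 of 83 were higher and 53 had an unadjusted p below 0.05 (edgeR), as did 2060 of 17718 genes tested. In amygdala 83 of 83 were higher and 67 had an unadjusted p below 0.05, as did 2251 of 18392 genes tested. Against non-responders the median was 0.71 in nucleus accumbens and 0.69 in amygdala (83 of 83 higher in each), but -0.07 in prefrontal cortex and 0.06 in hippocampus. Without library 78 the nucleus accumbens medians were -0.16 (5 of 83 higher) and -0.08 (7 higher), and without library 66 the amygdala medians were -0.05 (20 higher) and -0.08 (11 higher). No gene was called with or without them. Calls appeared when 1 of the other 2 responder libraries was left out instead. The genes called were then 72 and 69 of 83 in nucleus accumbens responders against non-responders (beside 19.5% and 13.9% of all genes) and 57 and 27 against susceptible mice (8.19% and 5.26%). In amygdala they were 60 and 68 against non-responders (8.54% and 8.81%).

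Single genes show how far each library stood from its group. Ndufa2, a complex I subunit, had the smallest p in nucleus accumbens responders against susceptible mice, with 44.8, 54.1 and 248 CPM in responders and 49.5, 61.0 and 51.5 CPM in susceptible mice (1.11, SE 0.376, adjusted p = 0.428). Without library 78 its log2 fold change was -0.14. Ndufb5 had 53.0, 56.6 and 206 CPM in responders and 54.1, 52.6, 57.5 and 55.1 CPM in non-responders (0.95, SE 0.277). In amygdala Ndufs6 had 25.5, 106 and 28.4 CPM in responders and 26.1, 25.0 and 28.0 CPM in susceptible mice (1.03, SE 0.331), and Ndufv2, of the NADH-binding module, had 96.5, 252 and 88.3 CPM in responders and 85.9, 85.5, 87.2 and 83.8 CPM in non-responders (0.77, SE 0.217). In each gene 1 responder library was far above the others and the other 2 lay near the libraries of the second group. The genes with the smallest p elsewhere were Ndufs6 (0.16, SE 0.0966) and Uqcrc2 (-0.14, SE 0.0543) in prefrontal cortex, against susceptible mice and non-responders in that order, and Cox6b2 (0.42, SE 0.307) and Ndufb6 (0.19, SE 0.0966) in hippocampus. Uqcrc2, a core subunit of complex III, had 185, 172 and 188 CPM in responder and 204, 190, 222 and 194 CPM in non-responder prefrontal cortex, 1 of 3 genes whose responder libraries all lay below (4.18% of all genes).

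Imipramine non-responders had medians of 0.10 in prefrontal cortex, -0.09 in nucleus accumbens, -0.04 in hippocampus and 0.04 in amygdala against susceptible mice. In prefrontal cortex 78 of 82 genes were higher and 14 lay above every susceptible library (3.41% of all genes). Ndufa13 had the smallest p there, with 70.4, 74.1, 87.1 and 78.0 CPM in non-responders and 69.7, 65.4 and 68.98 CPM in susceptible mice (0.18, SE 0.0718, adjusted p = 0.952). Elsewhere Cox7a1 in nucleus accumbens (-0.66, SE 0.415), Cox7c in hippocampus (-0.17, SE 0.114) and Uqcrc2 in amygdala (-0.11, SE 0.0889) had the smallest p. With the number series as a covariate the amygdala median was -0.13 and the prefrontal cortex median 0.052. Without libraries 78 and 66 the median was -0.10 in nucleus accumbens, with the smallest p for Ndufa5, and 0.045 in amygdala. These are the same 3 susceptible libraries per region as in the other drug comparisons.

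Whether a difference varied between the 4 regions was tested in a fit of all libraries, and 0 of 84 genes passed in any of the 9 comparisons (edgeR; DESeq2 was not run for this test), while 0% to 0.662% of all genes did. For imipramine responders against non-responders 71 of 84 had an unadjusted p below 0.05, beside 2279 of 19024 genes tested. After adjustment 0 genes of either set were called. Atp5e, the epsilon subunit of ATP synthase, had the smallest p (adjusted p = 0.264). Its responder libraries had 52.7, 57.9 and 284 CPM in nucleus accumbens, 52.4, 218 and 49.9 CPM in amygdala, 52.8, 50.3 and 60.5 CPM in prefrontal cortex and 51.6, 56.3 and 56.1 CPM in hippocampus. Its non-responder libraries ranged from 57.1 to 64.1, 49.7 to 65.2, 52.1 to 65.0 and 50.5 to 53.7 CPM in the same order. Without libraries 66 and 78, 0 of 84 genes had an unadjusted p below 0.05. Against susceptible mice Atp5e again had the smallest p (adjusted p = 0.845, edgeR). There 42 of 84 genes had an unadjusted p below 0.05, beside 1110 of 19024 genes tested, and 1 of 84 did without the pair of libraries. The ketamine comparisons went the other way. Without the pair 31 of 84 genes had an unadjusted p below 0.05 for responders against non-responders, against 2 with it. For non-responders against susceptible mice 23 did, against 0 with it, and 0 of the 84 were called. With the pair 452 and 557 of 19024 genes tested reached that unadjusted p in these comparisons, and the numbers without it are not given here.

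Libraries 78 and 66 were alike in which genes stood out. In library 78 all 84 genes lay above the other 24 accumbens libraries, by a median of 2.98-fold over their median, where 32.5% of all genes lay above and 32% below. In library 66, 83 of 84 lay above the other 24 amygdala libraries, where 30% of all genes lay above and 29.6% below, and Cox8b was the exception. Over the 84 genes, its level was at the median 2.94-fold the median of those libraries. By complex the median was 3.13-fold and 2.93-fold in complex I (libraries 78 and 66 in this order throughout), 1.99-fold and 2.00-fold in complex II, 2.88-fold and 3.01-fold in complex III, 2.96-fold and 2.98-fold in complex IV and 2.80-fold and 2.89-fold in complex V. Within complexes the range was wide. Ndufa2 stood 4.81-fold and 4.36-fold above the median of the other libraries and Atp5e 4.75-fold and 4.02-fold, while Ndufb2 stood at 1.33-fold and 1.21-fold and Sdha at 1.23-fold and 1.24-fold. Sdha had 512 CPM in library 78, against 381 to 446 CPM in the other accumbens libraries, and 542 CPM in library 66, against 408 to 479 CPM in the other amygdala libraries. Cox4i1 had 1203 CPM in library 78, against 250 to 376 CPM, and 973 CPM in library 66, against 272 to 449 CPM.

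Other lists shared this in part. Cytosolic ribosomal protein genes stood 3.13-fold and 3.07-fold above the median of the other libraries, and mitochondrial ribosomal protein genes 2.39-fold and 2.18-fold. Genes of the mitochondrial genome stood at 1.15-fold and 1.29-fold, the TCA cycle at 1.29-fold and 1.37-fold and regulators of biogenesis at 0.975-fold and 1.07-fold. These medians hide genes that moved both ways. Of 12 mitochondrial genes, 6 and 7 lay above every other library and 4 and 3 below. Of 16 TCA cycle genes 11 and 10 lay above and 4 and 4 below, and of 15 regulators 6 and 4 above and 6 and 4 below. Of all genes, 32.5% and 30% lay above and 32% and 29.6% below. Neuron markers were at 0.985-fold and 1.16-fold, astrocyte markers at 0.822-fold and 0.76-fold, microglia markers at 1.86-fold and 1.81-fold and red cell markers at 4.69-fold and 2.58-fold. Pituitary markers were at 4.08-fold and 15.4-fold and striatal projection neuron markers at 1.23-fold and 3.46-fold. Transcript length went with the deviation. Subunit genes with transcripts under 1000 bases (57 genes) had a median log2 deviation of 1.68 in library 78 and 1.64 in library 66, those of 1000 to under 2000 bases (21) 1.17 and 1.16, and those of 2000 to under 4000 bases (6) 0.52 and 0.55. Over all other genes the same length classes had 1.15 and 1.12, 0.63 and 0.61, and -0.01 and -0.00, and genes of 4000 bases or more -0.67 and -0.66. Subunit genes thus lay above other genes of their length class by about as much in each class. Library 64 had the same order at a smaller scale, with 0.55, 0.32 and 0.20 for the subunit genes and 0.33, 0.19, -0.01 and -0.24 for the others. Across the 84 genes, which share each library's depth and composition, Spearman's rho of deviation with length was -0.62 in library 78, -0.74 in library 66 and -0.65 in library 64. The part of RNA quality, library preparation or cell composition in these deviations was not tested.

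**Figure D5:**
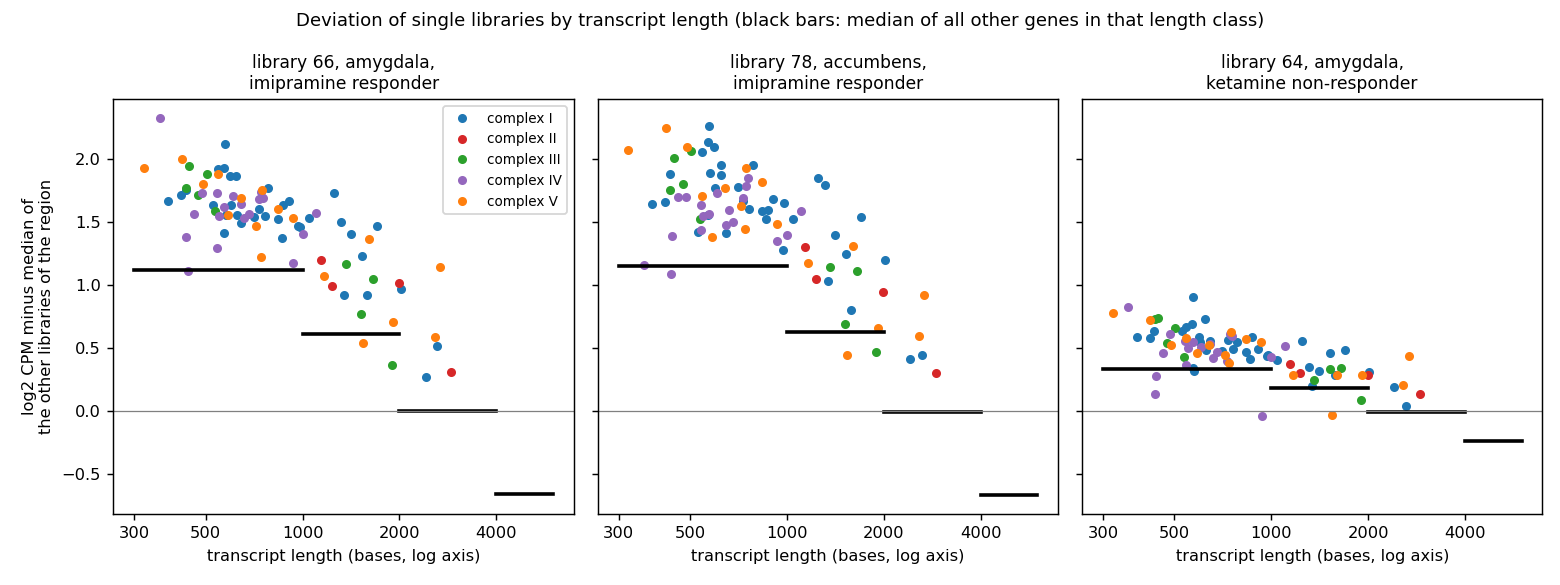
Deviation of library 66, 78 or 64 from the median of the other libraries of its region (vertical axis, log2 CPM) against transcript length (horizontal axis, bases, log scale), 1 panel per library. Points are subunit genes coloured by complex and black bars are medians of all other genes in a length class, which fall from 1.12 to -0.66 in library 66 and from 1.15 to -0.67 in library 78 as length grows.

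Without libraries 66 and 78 the within-group SD of log2 CPM had a median of 0.131 over 84 genes, against 0.184 over 19024 genes. The mean level of the genes varied most between libraries in ketamine non-responders of the amygdala, where library 64 lies (log2 CPM 5.83 ± 0.256, SD, n = 3), and of the nucleus accumbens (5.68 ± 0.214, n = 3). The within-group SD of single genes was lowest for Sdha (0.052), Ndufs1 and Uqcrc2 (0.068 each) and Ndufa9 (0.069). That SD was highest for Cox8b (0.837), which had 72 counts at most. With all conditions averaged, 56 of 84 genes differed between regions over all 99 libraries (89.5% of all genes) and 71 of 84 without libraries 66 and 78 (91.5%). Cox4i2 had a log2 difference of 0.93 in nucleus accumbens (SE 0.0671) and -0.71 in hippocampus (SE 0.0742) in the fit without that pair, Ndufa1 had 0.41 in nucleus accumbens (SE 0.0356) and Ndufb10 0.32 there (SE 0.0296).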

How the data were processed

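The deposited table holds raw counts of reads per Ensembl mouse gene in 99 libraries, not normalized by the authors. Per the labels' protocols, tissue of 2 mice was pooled per library, polyadenylated RNA was selected and read as paired ends. Per the submitters' processing notes, Bowtie2 2.1.0, TopHat2 2.0.9, HTSeq 0.6.0 and the build NCBIM37 were used; whether counting used strand is not given in the sources used here, so overlapping genes and pseudogene copies may share reads.

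Symbols came from annotation tables, which matched 32938 of 37991 identifiers (86.7%). Promoter sequences and coordinates are RefSeq's for GRCm38.p6, another build than the authors', and no coordinate was moved between builds. CPM used TMM library sizes over all 99 libraries, and log2 CPM a prior count of 2. Tests were edgeR 4.0.16 quasi-likelihood fits (R 4.3.3, limma 3.58.1) with filterByExpr at a minimum count of 10 and Benjamini-Hochberg adjustment over all genes tested, called at 0.05. Each region's 7 groups entered 1 fit, the controls of the 4 regions another, and all libraries the test of variation between regions. The scripts were tested on simulated data. P-values measure the spread between these pooled libraries. Compared pairwise within groups (132 pairs), 0 libraries held identical counts.

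Alternatives were median-ratio normalization, no filter, DESeq2 1.42.0, the number series as a covariate, leaving out each library in turn, and leaving out samples 66 and 78. Named genes are the 1 with the smallest p in each comparison of conditions, up to 2 called genes with the largest difference per complex and region, the isoform families, and genes with an outlying library; list genes are up to 2 with the smallest p. Members and lists were chosen with earlier results of these data known.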

Additional observations from a re-analysis of the deposited data

Results flagged for a closer look

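In each group of 4 or more libraries, the gap between the highest or lowest library and its nearest neighbour was compared with the group's whole range. Of 152 groups tested 4 stood out, a smaller share than the about 1 in 20 that chance gives. The 4 are listed as a description only. The mean log2 CPM of complex III in resilient nucleus accumbens had its lowest library, replicate 4, at 6.40, against 6.45 to 6.46 in the others, a gap of 0.845 of the range. Atp5g2 in control amygdala had its highest library, replicate 3, at a log2 CPM of 5.72, against 5.33 to 5.41 (0.793 of the range). Atp5s in control nucleus accumbens had its lowest, replicate 3, at 3.29, against 3.48 to 3.53 (0.772 of the range). Ndufa10 in control nucleus accumbens had its highest, replicate 5, at 6.93, against 6.72 to 6.77 (0.76 of the range).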

How the results depend on the processing

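No paired analysis was possible because the labels give no replicate numbers, and those used here follow accession order. The number series in the titles, which spans groups and regions, was fitted as a covariate instead and moved calls, of Atp5mpl, Cox4i2 and genes differing between regions, as given here. Median-ratio normalization, no filter and DESeq2 left 0 genes called in every comparison of conditions. With the number series as a covariate 1 gene was called in resilient against control prefrontal cortex and 1 in ketamine responder against susceptible hippocampus. Under it the median log2 fold change over the genes was 0.079 for ketamine responders against non-responders in prefrontal cortex. In nucleus accumbens it was -0.12 for resilient against control, -0.19 for resilient against susceptible and -0.21 for ketamine responders against susceptible mice. In amygdala it was 0.095 for susceptible against control, -0.08 for resilient against susceptible, -0.022 for ketamine non-responders against susceptible, -0.13 for imipramine non-responders against susceptible and -0.042 for ketamine responders against non-responders. Small medians also changed sign under it: -0.013 for ketamine non-responders and -0.01 for imipramine responders against susceptible prefrontal cortex, 0.017 for susceptible against control and -0.039 for imipramine responders against susceptible hippocampus. Some kept their sign but were smaller, such as 0.052 for imipramine non-responders and 0.009 for resilient mice against susceptible prefrontal cortex. In hippocampus 0.019 for resilient mice and 0.004 for ketamine responders against susceptible mice were smaller too. Some were larger, such as 0.065 for ketamine responders against susceptible prefrontal cortex.

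Without samples 66 and 78 the imipramine responder medians were -0.16 against susceptible mice and -0.077 against non-responders in nucleus accumbens, and -0.055 and -0.084 in amygdala. Leaving out 1 library at a time gave -0.16 to 0.90 and -0.077 to 1.01 in nucleus accumbens, and -0.055 to 0.985 and -0.084 to 0.954 in amygdala. Genes called ranged from 0 to 57 (nucleus accumbens, against susceptible mice), 0 to 72 (against non-responders), 0 to 68 (amygdala, against non-responders) and 0 to 3 (ketamine responders against susceptible hippocampus). Variation between regions ranged from 0 to 22 genes for imipramine responders against susceptible mice and 0 to 47 against non-responders. The numbers were 7 and 47 when replicate 2 of every group was left out and 22 and 35 when replicate 3 was. The share of all genes called in those fits is not given here, so these numbers have no background beside them. Reversed were Ndufa2 in nucleus accumbens responders against susceptible mice (-0.138 without sample 78, 1.498 at most) and Cox8b in amygdala ketamine responders without replicate 2 (-2.731 against susceptible mice and -2.173 against non-responders, with 3.28 and 4.34 at most without another library). Apart from the libraries left out, the cause was not tested.

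Genes differing between regions numbered 41 in controls with the number series, 56 over all 99 libraries, 71 without samples 66 and 78, and 16 to 32 leaving out 1 control library. Of all genes, 76.9%, 89.5%, 91.5% and 69.8% to 73.9% did so in the same order. Shares of all genes higher or lower in single regions are not given for these fits, so the counts per region that follow have no background beside them. In the same settings, in this order, prefrontal cortex had 6 higher with the number series and 17 without samples 66 and 78, and 8, 29, 29 lower, nucleus accumbens 23, 38, 36 higher (5 and 18 lower in the fits of all conditions), hippocampus 9, 9, 31 higher (17 and 16 lower in the same fits) and amygdala 9 and 9 higher in those fits and 13, 5, 24 lower. DESeq2 gave 2 higher in prefrontal cortex and 11 in hippocampus, median-ratio normalization 10 higher in hippocampus, and no filter 8 higher in hippocampus and 1 higher and 5 lower in amygdala. Leaving out 1 library gave 0 to 4 higher and 2 to 8 lower in prefrontal cortex, 9 to 22 and 4 to 14 in nucleus accumbens, 0 to 11 higher in hippocampus, and 0 to 3 and 5 to 21 in amygdala. The isoform genes Cox8b, Cox7b2 and Cox8c had too few counts for small differences to be detectable.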

Other observations

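Within hippocampus, Cox8b, the heart and muscle isoform of complex IV subunit 8, was highest in libraries that also carried choroid plexus transcripts. This pattern was chosen after its values were seen. The summed level of the choroid plexus markers was 2583 CPM in ketamine responder replicate 2, where Cox8b was at 1.61 CPM, and 1840 CPM in ketamine non-responder replicate 2, where it was at 0.714 CPM. It was 1009 CPM in resilient replicate 1, with Cox8b at 0.493 CPM, and 420 CPM in ketamine responder replicate 1, with 0.383 CPM. Outside hippocampus, a ketamine responder library of the amygdala had more Cox8b, 2.13 CPM. Choroid plexus markers reached 2947 CPM in a library of that group, 792.5 CPM in imipramine responder amygdala, 779 CPM in control amygdala and 516.5 CPM in susceptible prefrontal cortex. Over all prefrontal cortex libraries, including that with 516.5 CPM, Cox8b made up at most 0.0955% of the Cox8 family per length. In hippocampus it made up at most 0.705%. In control amygdala, with 779 CPM of markers in 1 library, Cox8b averaged 0.226 ± 0.227 RPKM (SD, n = 5). High choroid plexus sums outside hippocampus thus did not always come with high Cox8b. The Cox8b levels of the single libraries there were otherwise not set beside these sums. The part of choroid plexus tissue in these levels was not tested.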
